A study of Homo sapiens with 6 samples.

Results

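The 10 genes TAP1, TAP2, TAPBP, PSMB8, PSMB9, PSMB10, ERAP1, ERAP2, PSME1 and PSME2, which make the immunoproteasome and load its peptides onto HLA class I, were followed in HSC-3 cells, an established line of human tongue squamous carcinoma. They were chosen by name, with earlier results of the same comparison known, and every probe set annotated to them was taken: 23 of the 54613 probe sets that are not controls. Of the 23, 19 passed the filter on dim signals and 4 did not. The only PSME2 probe set is annotated to MIR7703 as well, and its values are given for PSME2 with that limit.

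RNA was measured on 6 Affymetrix arrays. Of these, 3 are labelled TAT-2, from HSC-3 cells made to overexpress trypsin-2 (the protease encoded by PRSS2), and 3 are labelled vector, from HSC-3 cells with a control vector and, per the labels, no trypsin-2. Both lines grew for 48 h in the same serum medium with hydrocortisone, replicates are numbered 1 to 3 in each group, and the sources used here do not say whether a line was 1 clone or a pool, or whether replicates were separate cultures. P-values therefore rest on the spread among these arrays alone, which may be technical, and 3 arrays per group limit the precision.

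Proteasomes cut cytosolic proteins into peptides. Interferon induces the catalytic subunits PSMB8, PSMB9 and PSMB10, which replace PSMB5, PSMB6 and PSMB7 in newly built particles, and the PA28 activator made of PSME1 and PSME2 opens the particle's end. The peptides pass into the endoplasmic reticulum through the transporter TAP1-TAP2, are trimmed by the aminopeptidases ERAP1 and ERAP2, and are loaded onto HLA class I with the help of tapasin, encoded by TAPBP. Tumour cells often lower these genes, and interferon gamma raises them, which is why the pathway is followed in carcinoma lines.

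Some facts of the arrays bear on every value. The brightest PRSS2 probe set gave 20.4, 13.8 and 14.6 on the TAT-2 arrays and 19.6, 80.8 and 83.2 on the vector arrays, replicates 1, 2 and 3 in turn, which goes against the labels. A second gave 19.9, 17.9 and 19.5 on TAT-2 arrays and 22.6, 38 and 54.5 on vector arrays, against the labels too. The third, below the filter and annotated to PRSS1 as well, gave 2.2, 2.26 and 3.56 on TAT-2 arrays and 0.997, 0.816 and 1.41 on vector arrays, which goes with them. Each direction therefore rests on the labels alone. Whether these probe sets can read the introduced sequence is not known here. The first principal component, with 45.6% of the variance, parted both replicate 1 arrays from the other 4, and the labels' descriptions also write replicate 1 in another form. Squamous epithelial markers were above the filter for 7 of 10 genes (KRT5, KRT14, KRT16, EPCAM, CDH1, DSG3 and ITGB4), and KRT6A, KRT17 and TP63 were not counted. All marker lists used only probe sets annotated to 1 symbol, so a gene not counted may be dim or may lack such a probe set. Of 11 leukocyte markers, 2 were above the filter, CD14 and CD74. The summed leukocyte signal ran from 214 to 256 on TAT-2 arrays and from 169.9 to 215 on vector arrays. Of 7 fibroblast markers, COL1A1 and DCN were above the filter, with summed signals of 135 to 143 on TAT-2 arrays and 116 to 139.8 on vector arrays. The part of these markers in the results was not tested. In bulk RNA, fewer expressing cells and less RNA per cell cannot be told apart.

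The promoters of these genes are shown because the family is known as an interferon-induced set. Any link between their sequence and the differences between TAT-2 and vector was not tested. The RefSeq promoter table (build GRCh38.p14), with 250 bases before and 50 after each annotated start, holds all 10 genes in 14 windows. The core of the interferon response element, GAAA-NN-GAAA, searched on both strands, was found in the windows of 9 of the 10 genes, against 4.38% of the 27305 genes of the table. PSMB9 alone had no match in its own window. TAP1 and PSMB9 are read in opposite directions from starts 488 bases apart on chromosome 6, and the TAP1 window between them holds 2 overlapping matches, at -134 and -128 from the TAP1 start, the first of them 354 bases from the PSMB9 start. The 250 bases before the TAP1 start are given with the interferon core and matches to GGG-NNNNN-CC, an NF-kB element pattern that 58.7% of all windows hold, in capitals.
TAP1, chr6:32853705-32853954, minus strand: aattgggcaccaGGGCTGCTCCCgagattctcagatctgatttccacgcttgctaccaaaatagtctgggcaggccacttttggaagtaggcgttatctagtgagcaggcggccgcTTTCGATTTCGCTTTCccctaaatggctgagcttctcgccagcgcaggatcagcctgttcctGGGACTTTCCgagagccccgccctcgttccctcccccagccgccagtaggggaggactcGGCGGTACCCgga

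In the other 8 genes the interferon core began between -58 (TAP2) and 6 (PSME1) relative to the first transcribed base of its window, which counts as 1. The 30 bases around each match, read along the gene's strand with the match in capitals, show GAAA pairs on the gene's own strand in TAP2, TAPBP, PSMB10, ERAP2 and PSME2 and their complement, TTTC pairs, in PSMB8, ERAP1 and PSME1. TAPBP holds a second match at -14 that overlaps the first, at -20, and runs on into the lower case letters after it.
TAP2, chr6:32838778-32838807, minus strand: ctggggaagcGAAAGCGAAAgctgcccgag
TAPBP, chr6:33314079-33314108, minus strand: ccctttggagGAAAGTGAAAgtgaaaggag
PSMB8, chr6:32844032-32844061, minus strand: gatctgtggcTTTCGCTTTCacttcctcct
PSMB10, chr16:67936852-67936881, minus strand: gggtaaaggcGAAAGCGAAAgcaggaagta
ERAP1, chr5:96807924-96807953, minus strand: cgggctccacTTTCACTTTCggtcctgggg
ERAP2, chr5:96876460-96876489, plus strand: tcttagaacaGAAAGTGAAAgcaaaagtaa
PSME1, chr14:24136189-24136218, plus strand: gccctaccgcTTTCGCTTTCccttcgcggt
PSME2, chr14:24146619-24146648, minus strand: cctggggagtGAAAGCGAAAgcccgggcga

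The STAT element pattern TTC-NNN-GAA, a palindrome, was found in 2 of the 14 member windows, in TAP1 and PSMB8, against 7.66% of all windows. The TAP1 match lies in the window of another annotated TAP1 start, not in the bases printed above. Among partner genes, the interferon core was found for 3 of 17 constitutive proteasome genes, for HLA-F and B2M of 5 HLA class I genes in the table, for LAP3 of 14 loading partners and peptidases, for 3 of 16 regulators of interferon signalling and class I transcription (RFX5, SOCS1 and RELA), and for 0 of 10 class II genes. A match is a run of letters and was not tied to any factor here.

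Over the 10 genes, TAP1, PSMB9 and PSMB8 were the ones higher on TAT-2 arrays, by 1.41-, 1.35- and 1.26-fold (log2 0.50, 0.43 and 0.33 on the scale of log2(signal + 16), as are all fold changes here, which understates the change of dim probe sets). PSME1, PSME2, PSMB10 and ERAP2 lay within 0.06 log2 of equal on their brightest probe sets, and TAP2, ERAP1 and TAPBP lay between, at 0.09, 0.14 and 0.19. These differences chose or accompanied the choice of the genes, so they are given as a description and nothing is supported with them. The median log2 difference of the 19 probe sets was 0.13, beside -0.010 over all 27307 tested probe sets.

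**Figure D1:**
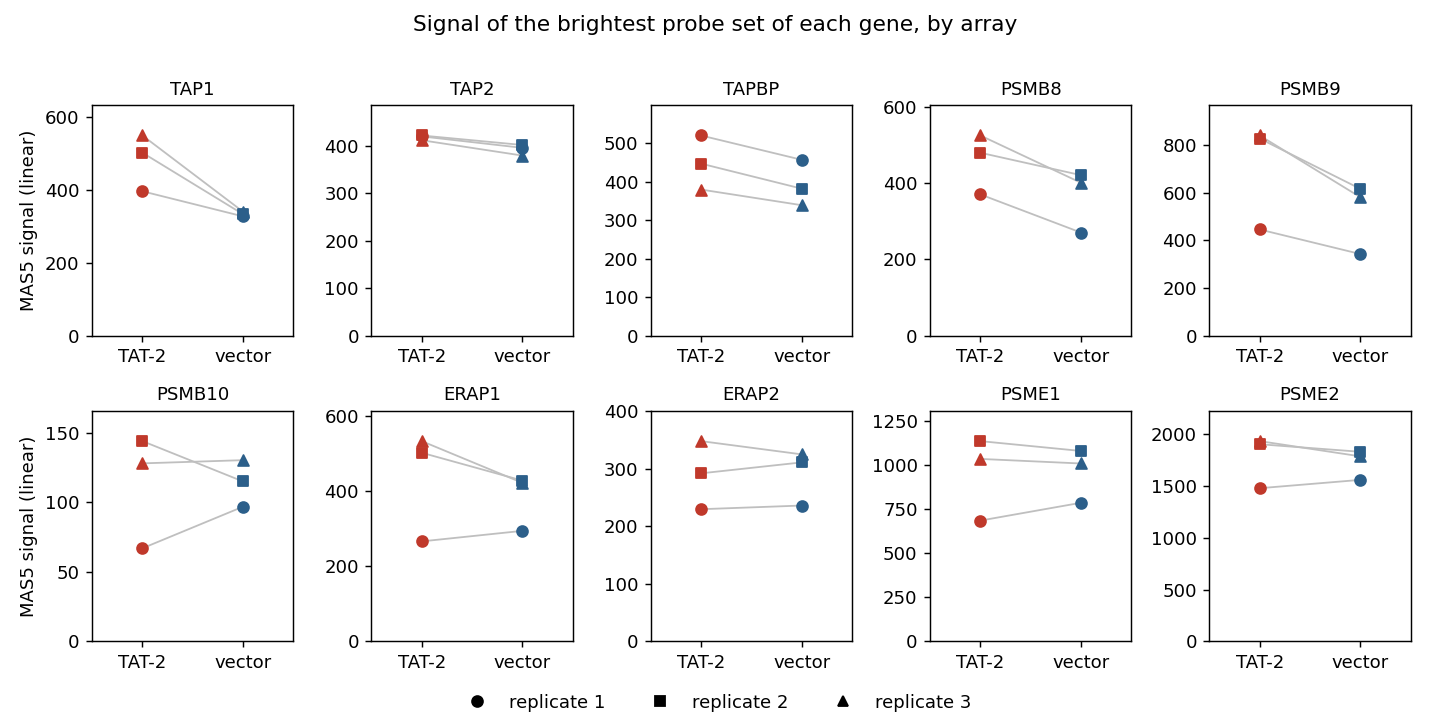
Linear MAS5 signal (vertical axis, from 0) of the brightest probe set of each gene on TAT-2 arrays (left, red) and vector arrays (right, blue), with grey lines joining arrays of the same replicate number. TAP1 is tightly grouped at 328 to 341 on vector arrays and lies at 397 to 550.4 on TAT-2 arrays, while in PSMB8, PSMB9, PSMB10, ERAP1, ERAP2, PSME1 and PSME2 the replicate 1 arrays of both groups lie below the other arrays.

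TAP1, the transporter subunit that shares its promoter region with PSMB9, gave signals of 397, 503 and 550.4 on TAT-2 arrays 1, 2 and 3 and of 328, 334 and 341 on vector arrays 1, 2 and 3. All TAT-2 arrays lay above all vector arrays, and the vector arrays were within a few percent of each other. The means were 483 ± 78.6 on TAT-2 arrays and 334 ± 6.73 on vector arrays (SD, n = 3 each), a log2 difference of 0.50 ± 0.13 (SE; 0.09 with the replicate number as a block). By replicate number the TAP1 difference was 0.26, 0.57 and 0.66, so it was smallest in replicate 1.

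PSMB9, the immunoproteasome subunit that takes the place of PSMB6, gave 446, 828 and 841 on TAT-2 arrays and 343, 617 and 582 on vector arrays. The groups overlapped, with replicate 1 of each far below its other arrays, and the TAT-2 array was the higher at each replicate number, by a log2 of 0.36, 0.42 and 0.52. The SE of the mean difference of 0.43 was 0.28 without the block and 0.07 with it.

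PSMB8, which takes the place of PSMB5, gave 370.4, 479.7 and 525 on TAT-2 arrays and 270.4, 421 and 401 on vector arrays. These groups overlapped as well, with differences of 0.43, 0.18 and 0.38 by replicate number and a mean of 0.33 ± 0.19 (SE; 0.08 with the block).

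PSMB10, the third inducible subunit and the counterpart of PSMB7, did not follow the other two. It gave 66.9, 144 and 128 on TAT-2 arrays and 96.8, 115 and 130.3 on vector arrays. The TAT-2 array was lower in replicate 1 (-0.45), higher in replicate 2 (0.29) and near equal in replicate 3 (-0.02), with means of 113 ± 40.8 on TAT-2 arrays and 114 ± 16.8 on vector arrays (SD, n = 3 each). The PSMB10 gene lies on chromosome 16, away from PSMB8, PSMB9, TAP1 and TAP2, which lie together in the HLA class II region of chromosome 6.

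TAP2, the other transporter subunit, had 3 tested probe sets. The brightest gave 420.1, 422 and 412 on TAT-2 arrays and 396, 402 and 379.7 on vector arrays. The groups did not overlap, but the difference was 0.09 ± 0.10 (SE; 0.07 with the block), far smaller than that of TAP1. The 2 dimmer TAP2 probe sets had mean differences of 0.13 and 0.17, and each had the opposite sign in replicate 1 (-0.07 and -0.11). The remaining TAP2 probe set was below the filter, at 5.64 to 10.2 on TAT-2 arrays and 1.03 to 13.5 on vector arrays.

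TAPBP gave 520.1, 447 and 379.6 on TAT-2 arrays and 457, 382 and 339 on vector arrays with its brightest probe set. The TAT-2 array was higher at each number by 0.18, 0.22 and 0.16, and here replicate 1 was the highest of each group rather than the lowest. The dimmest of its 3 probe sets, at 23.6 to 33.6 on TAT-2 arrays and 15.6 to 20.2 on vector arrays, kept the groups apart (log2 0.32 ± 0.17), and the middle one had the opposite sign in replicate 3 (-0.30).

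ERAP1, a trimming aminopeptidase, gave 266, 502 and 533 on TAT-2 arrays and 294, 428 and 422 on vector arrays. Its differences by replicate number were -0.13, 0.22 and 0.33, so the sign changed with the replicate. The second ERAP1 probe set was higher on the TAT-2 array at all 3 numbers (0.24, 0.28 and 0.13), the third ran between -0.31 and 0.59, and 2 more were below the filter, at 6.62 to 13.4 on TAT-2 arrays and 3.24 to 12.7 on vector arrays.

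ERAP2, its paralog on chromosome 5, gave 229.6, 292 and 348 on TAT-2 arrays and 236, 311 and 325 on vector arrays, a difference of -0.01 ± 0.18 (SE; 0.08 with the block). Its 3 other tested probe sets were at -0.08, 0.13 and -0.00, and 1 more was below the filter, at 1.84 to 3.77 on TAT-2 arrays and 0.335 to 7.3 on vector arrays. No ERAP2 probe set kept the groups apart.

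PSME1 gave 685, 1136 and 1035 on TAT-2 arrays and 786, 1080.2 and 1009 on vector arrays. The probe set of PSME2, its partner in the PA28 ring and its neighbour on chromosome 14, gave 1479, 1904 and 1934 on TAT-2 arrays and 1559.5, 1831 and 1787 on vector arrays. In both genes the TAT-2 array was lower in replicate 1 (-0.20 and -0.08) and higher in replicates 2 and 3 (0.04 to 0.11), with mean differences of -0.03 ± 0.20 and 0.03 ± 0.12 (SE; 0.07 with the block for each).

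**Figure D2:**
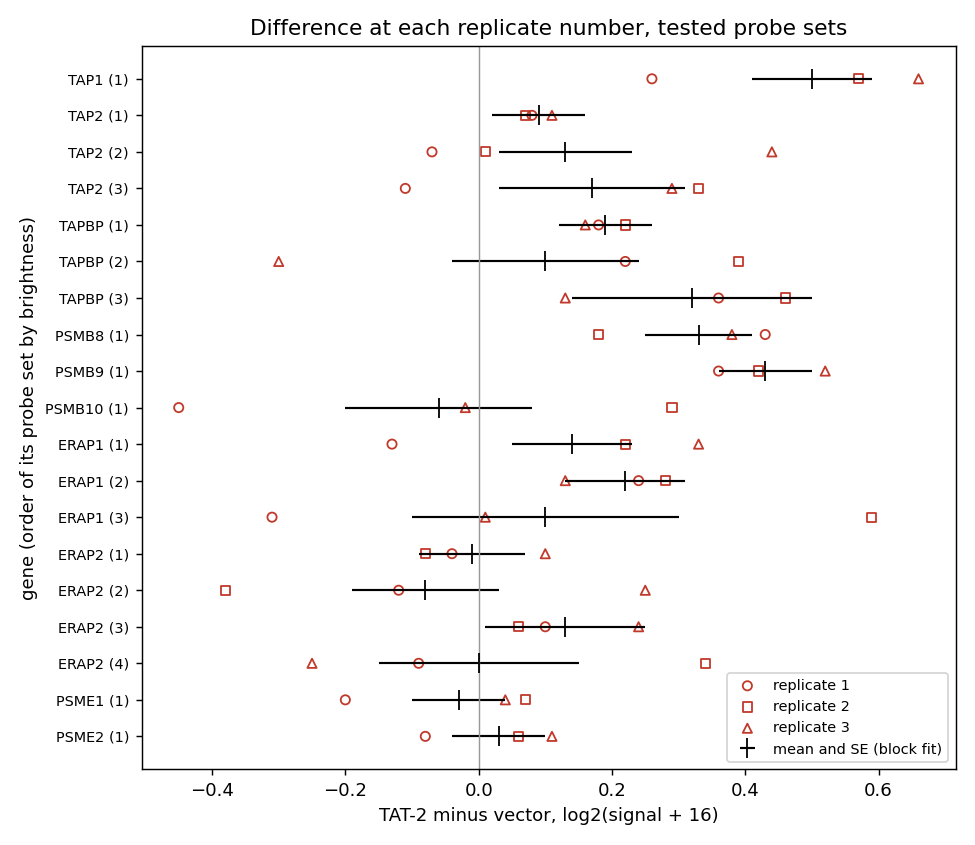
Difference of TAT-2 minus vector on the log2(signal + 16) scale (horizontal axis) for the 19 tested probe sets (vertical axis, numbered by brightness within a gene), as open symbols for replicates 1, 2 and 3 and a black bar for the mean and the SE of the fit with the replicate block. TAP1, PSMB8 and PSMB9 have all 3 symbols at 0.18 or above, and PSMB10 runs from -0.45 to 0.29.

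In limma over all 27307 tested probe sets with group as the only term, 0 of the 19 member probe sets were called at an adjusted p under 0.05, beside 0.0293% of all tested. The probe set of TAP1 was the 1 member with an unadjusted limma p under 0.05, beside 2146 of the 27307. With the replicate number as a block 3 were called higher, those of TAP1, PSMB8 and PSMB9, beside 2.55% of all tested, and 0 lower, beside 2.66%. The TAT-2 arrays lay wholly above the vector arrays for 3 of the 19 (TAP1, the brightest of TAP2 and the dimmest tested of TAPBP), beside 6.73% of all tested, and wholly below for 0, beside 7.35%. The TAT-2 array was higher at all 3 replicate numbers for 8 of the 19, beside 18.6%, and lower at all 3 for 0, beside 20.5%. Nothing is read from these shares, since the contrast was known when the genes were chosen. The blocked calls of TAP1, PSMB8 and PSMB9 were all lost without the intensity trend of the variance, and those of TAP1 and PSMB8 without the filter on dim signals. The call of PSMB8 was also lost when the pair of replicate 1, or that of replicate 3, was left out, and with array medians centred.

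The size of the difference varied with the replicate number. In replicate 1, 9 of the 19 probe sets were higher on the TAT-2 array, with a median difference of -0.04, beside 0.002 over all tested probe sets. In replicate 2, 17 were higher, with a median of 0.22 beside 0.015, and in replicate 3, 16, with a median of 0.13 beside -0.039. The probe sets of TAP1, PSMB8 and PSMB9 and the brightest of TAP2 were positive in all 3. So were the brightest and the dimmest tested of TAPBP, the second of ERAP1 and the third of ERAP2, by brightness.

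The shift of replicate 1 itself does not enter the group difference. This split was taken up after the data were seen, in which the first principal component parted the replicate 1 arrays. Its p-values are therefore a description, and probe sets of the same gene are counted separately. With group kept in the fit, limma called 9 of the 19 member probe sets lower on the replicate 1 arrays than on replicates 2 and 3, beside 10% of all tested, and 2 higher, beside 11.4%. The split holds 2 arrays against 4, and the labels do not say what the replicate number stands for. This fit used the intensity trend and the filter on dim signals, and the shift was not refitted without them. The median shift over the members was -0.29, beside 0.016 over all tested probe sets.

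The largest shift among the members was that of PSMB9, at -0.83 ± 0.07 (SE, limma adjusted p = 4.73e-05), larger than its difference between TAT-2 and vector. The 2 brighter ERAP1 probe sets were each at -0.71 (limma adjusted p = 0.000553 and 0.000977), and PSMB10, PSME1 and PSMB8 were at -0.58, -0.53 and -0.50. PSME2 was lower by less (-0.29 ± 0.06, limma adjusted p = 0.00857), as were the 2 brighter ERAP2 probe sets (-0.43 and -0.45). TAPBP was called higher on replicate 1 with its 2 brighter probe sets (0.33 ± 0.09 and 0.51 ± 0.16, limma adjusted p = 0.0228 and 0.0444), while the third was at -0.16 ± 0.18 (adjusted p = 0.582). TAP1 was at -0.22 ± 0.09 (adjusted p = 0.126) and the brightest TAP2 probe set at 0.02 ± 0.07 (adjusted p = 0.911), neither called by limma. The 2 dimmer TAP2 probe sets were at 0.29 and -0.14 and were not called either.

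**Figure D3:**
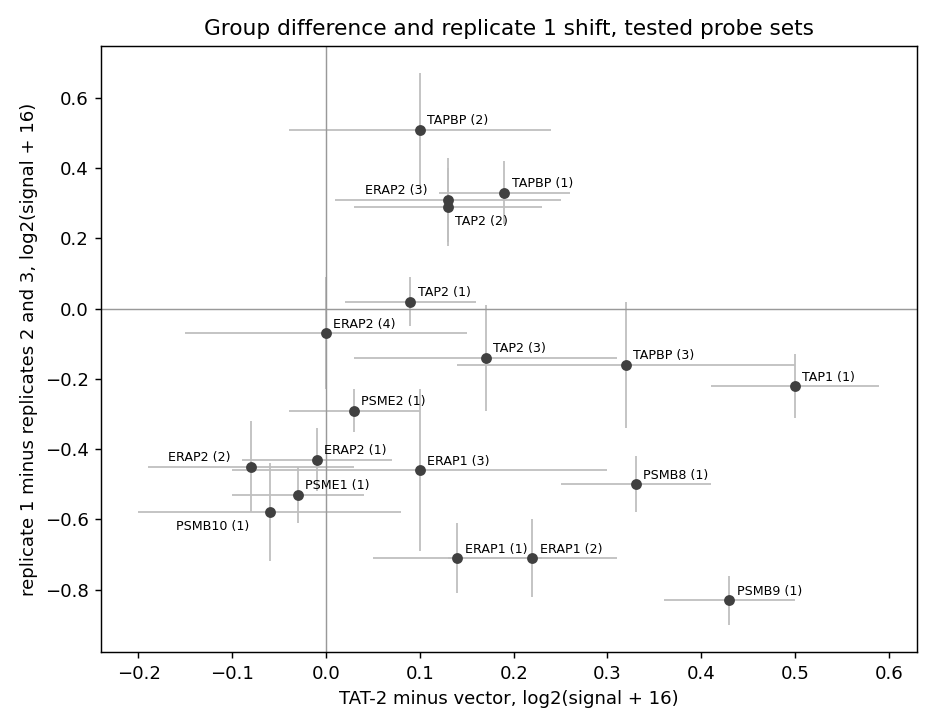
Group difference (horizontal axis, TAT-2 minus vector, SE of the blocked fit) against replicate 1 shift (vertical axis, replicate 1 minus replicates 2 and 3, SE of the fit with group and replicate 1 as terms), both on the log2(signal + 16) scale, for the 19 tested probe sets numbered by brightness within a gene. PSMB9 lies at 0.43 and -0.83, TAP1 at 0.50 and -0.22, and the 2 brighter TAPBP probe sets lie above 0 on the vertical axis.

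The inducible subunits were set against the constitutive ones they replace by the difference between their log2 fold changes, which compares changes and not levels. For PSMB9 against PSMB6 it was 0.79, with 0.82, 0.82 and 0.72 at replicates 1, 2 and 3. It joins a higher PSMB9 (0.43) with a lower PSMB6 (-0.35). For PSMB8 against PSMB5 it was 0.35 (0.43, 0.21 and 0.40), with PSMB5 at -0.02. For PSMB10 against PSMB7 it was 0.04 (-0.19, 0.39 and -0.08), with no common sign. These differences hold the members' own contrast and were not tested.

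The partner genes are not members, and their lists were drawn up with earlier results known. Of 6 tested HLA class I genes, the chains that present the peptides, and B2M, their shared light chain, 5 rose with the block and 0 fell, beside 3.5% of 12151 genes that rose and 3.46% that fell by their brightest probe sets. Without the block limma called 0 partner genes of any list, beside 0.0576% of all genes. Of the HLA genes, 5 had an unadjusted p under 0.05 in that fit, beside 2146 of all 27307 tested probe sets. HLA-B gave 1907, 1997 and 1894 on TAT-2 arrays and 1077, 1341 and 1049 on vector arrays, a log2 difference of 0.74 ± 0.07 (SE with the block, limma adjusted p = 0.000302, and 0.0699 without the block). HLA-F (0.59), HLA-G (0.59), HLA-C (0.49) and HLA-E (0.40) followed, each with other probe sets of the same sign. The probe sets of all 5 end in _x_at and can read one another's sequence, so they may not be separate counts. All 5 calls were lost without the intensity trend (limma adjusted p of 0.118 for HLA-B to 0.181 for HLA-E), and all 5 were kept without the filter on dim signals. B2M was at 0.04 ± 0.07, with 5117 ± 719 on TAT-2 arrays and 4948 ± 549.7 on vector arrays (SD, n = 3 each). The list's median was 0.54, beside -0.002 over all genes.

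Of 21 tested constitutive proteasome genes, 0 rose and 3 fell with the block, beside 3.5% of all genes that rose and 3.46% that fell. The 3 were PSMF1, a proteasome inhibitor (-0.40 ± 0.09, limma adjusted p = 0.025), PSMA7, an outer ring subunit (-0.39 ± 0.07, adjusted p = 0.00855), and PSMB6 (-0.35 ± 0.07, adjusted p = 0.0135). PSMB6 gave 1535, 1399.7 and 1545 on TAT-2 arrays and 2108, 1858 and 1783 on vector arrays, with no overlap. All 3 calls were lost without the intensity trend, without the filter and when the pair of replicate 2 was left out, and those of PSMB6 and PSMA7 also with array medians centred and when the pair of replicate 1 was left out. PSMF1 and PSMA7 both lie on chromosome 20. The other 18 genes lay between -0.24 and 0.09, and the list's median was -0.00.

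Of 14 tested loading partners and cytosolic peptidases, 1 rose with the block and 0 fell, beside 3.5% of all genes that rose and 3.46% that fell. The 1 was GANAB, the glucosidase that trims sugars of new glycoproteins (0.39 ± 0.07, limma adjusted p = 0.00789), with 907 ± 153 on TAT-2 arrays and 689.9 ± 137 on vector arrays (SD, n = 3 each). That call was lost without the trend and without the filter (limma adjusted p = 0.198 and 0.0515). The chaperones of the loading complex, CALR, CANX and PDIA3, were at 0.21, 0.12 and 0.07 and were not called. The median was 0.12, with 12 of the 14 above 0.

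Of 18 tested regulators of interferon signalling and class I transcription, limma called 0 with the block, beside 3.5% of all genes higher and 3.46% lower. It called 0 without the block, beside 0.0576% of all genes. At an unadjusted limma p under 0.05 there were 4 with the block and 0 without it. Over all 27307 tested probe sets, 5043 with the block and 2146 without it were under that level, and nothing is read from such counts. IRF9, a subunit of the interferon-activated factor ISGF3 and a neighbour of PSME2, was at 0.37 ± 0.21 (SE without the block), and SOCS3, a feedback inhibitor of cytokine signalling, at -0.42 ± 0.19, with its 1 other tested probe set of the opposite sign. NLRC5, the class I transactivator, was at 0.06 ± 0.16 and IRF1 at 0.23 ± 0.18 (SE without the block). The NLRC5 signals were dim, at 27.3 on TAT-2 arrays and 25.3 on vector arrays on average. Of 6 tested class II genes with CD74, limma called 0 with the block and 0 without, with 1 in each at an unadjusted p under 0.05, beside the same shares and totals. That was HLA-DOA, with 18.8 on TAT-2 arrays and 38.5 on vector arrays on average (-0.63 ± 0.20, SE without the block), while HLA-DMA, a peptide exchange factor of class II, was at 0.18 ± 0.18. IRF1, NLRC5 and HLA-E were chosen after their values were seen, as were CALR, CANX and PDIA3.

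**Figure D4:**
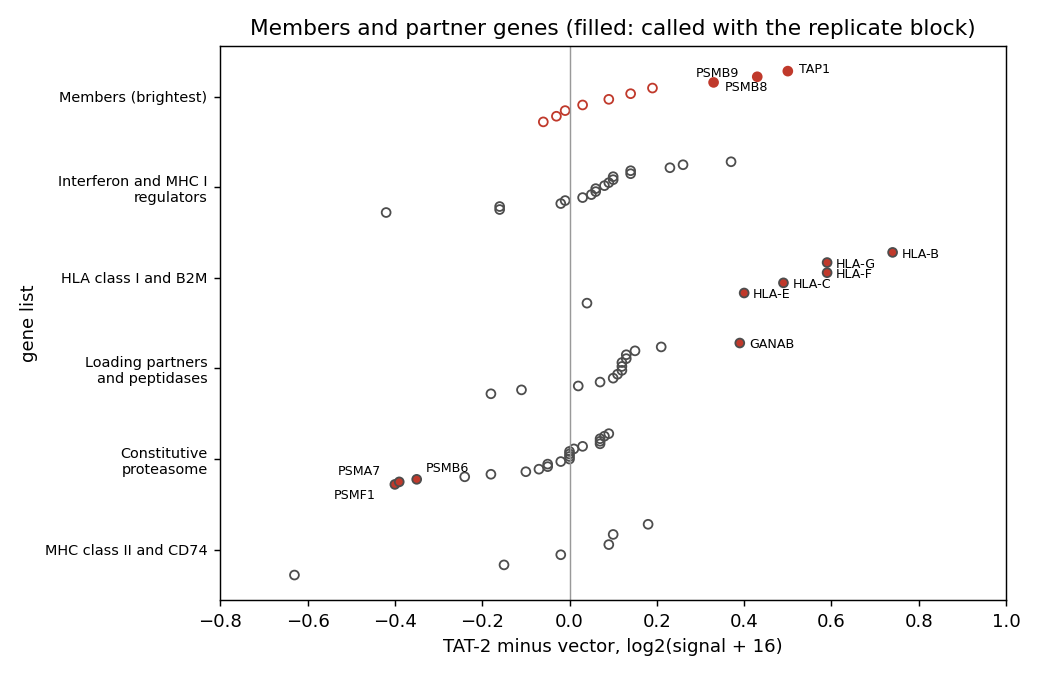
Difference of TAT-2 minus vector (horizontal axis, log2(signal + 16)) of the brightest probe set of each gene, in rows for the 10 members and 5 partner lists, with filled points for those called by limma with the replicate block and a small vertical spread by rank only. The 5 called HLA class I genes lie at 0.40 to 0.74 and the 3 called constitutive proteasome genes at -0.40 to -0.35.

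Genes beside the members on their chromosomes were counted by the same fit. Around the chromosome 6 cluster of TAP1, TAP2, PSMB8 and PSMB9, 16 of 21 tested neighbours lay above 0, with a median of 0.18, and limma with the block called 1 higher and 0 lower, beside 3.5% higher and 3.46% lower over all genes, whose median was -0.002. Around TAPBP it was 15 of 20, with a median of 0.16 and 1 called higher, in a list that shares genes with the first. Around ERAP1 and ERAP2 on chromosome 5 it was 16 of 20 (median 0.20, 2 called higher), around PSMB10 on chromosome 16 it was 5 of 20 (median -0.10, 0 called) and around PSME1 and PSME2 on chromosome 14 it was 8 of 21 (median -0.06, 0 called).

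Across the 6 arrays, the genes outside the family whose log2 signals followed TAP1 most closely were NNMT (Pearson r = 0.994), PITPNB and PLXNC1 (0.991 each), SKP1 and SNRPD3 (0.99 each). NNMT, a nicotinamide methyltransferase, gave 98.6, 168 and 213 on TAT-2 arrays and 53.6, 69.4 and 64.5 on vector arrays, the same order of the TAT-2 replicates as TAP1. PSMB8 and PSMB9 came at ranks 909 and 960 of 12150 genes (r = 0.76 and 0.75), TAP2 at 1353 and ERAP1 at 1888. The other ranked members were further down, with TAPBP at 5302 (r = 0.08). PSME2, whose probe set is annotated to MIR7703 as well, was not ranked (r = 0.52). The 6 points share the replicate 1 shift, and among so many genes some must lie close to any pattern, so the order is a description.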

How the data were processed

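The authors deposited 1 intensity per probe set and array, a linear MAS5 signal, per the submitters' processing notes; its version is not given in the sources used. On each array the signals from percentile 2 to percentile 98 averaged 99.99, and that scaling was kept. Array medians ran from 14.8 to 17.6. The arrays hold 54675 probe sets, with 62 controls. By the platform annotation 41097 carry 1 symbol, 1801 several and 11777 none, and 41043 symbols were updated by gene identifier to a RefSeq table of GRCh38.p14.

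Signals were transformed as log2(signal + 16). A probe set was tested where its mean over the 6 arrays reached the median (4.96, a signal of 15.2), which left 27307. limma 3.58.1 in R 4.3.3 (lmFit, eBayes with an intensity trend) fitted TAT-2 minus vector, with Benjamini-Hochberg adjustment over all of them at 0.05. The fits were also run on simulated data. There, same-numbered arrays were given a shared shift, so the simulation cannot decide between the fits with and without the block. A gene of a partner list is represented by its brightest tested probe set. Up to 4 genes called with the block are named from each list, by size, or otherwise the 2 of smallest p. The members, lists, tests and alternatives were chosen with earlier results of these data known. The test of the replicate 1 shift was added after the data were seen.

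Replicate numbers were checked for pairing. After the group means were taken off, arrays of the same number correlated at r = 0.64, 0.39 and 0.25 for numbers 1, 2 and 3, each over 0.1, so the blocked value is given where it changes a call. TAT-2 replicate 2 with vector replicate 3 reached 0.32, and TAT-2 replicate 3 with vector replicate 2 reached 0.20, so the numbers 2 and 3 are not shown to pair arrays. What a number stands for is not labelled.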

Additional observations from a re-analysis of the deposited data

How the results depend on the processing

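No tested member probe set that was called with the replicate block changed sign under the 27 alternatives. Over those alternatives the log2 difference of TAP1 ran from 0.40 to 0.63, that of PSMB9 from 0.17 to 0.73 and that of PSMB8 from 0.14 to 0.47, positive in all 26 fits with a value for the probe set, the reported one included. PSMB10 ran from -0.24 to 0.23 and PSME1 from -0.17 to 0.19. Over the tested member probe sets and the alternatives, 469 values moved by less than the spread between replicates and 4 by more.

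Without a block limma called 8 probe sets over all tested and 0 members and 0 partner genes, with 2146 probe sets at an unadjusted p under 0.05. With the replicate block it called 1424, 3 members and 9 partners, and with replicate 1 against replicates 2 and 3 as a term it called 1232, 3 and 9. The blocked counts for all, members and partners were 0, 0 and 0 without the trend (4260 at an unadjusted p under 0.05), 415, 1 and 5 without a filter, 1584, 3 and 11 with quantile normalization, 1372, 2 and 9 with array medians centred, 1296, 3 and 9 with a pseudocount of 1, 1500, 3 and 9 with a pseudocount of 64, and 775, 3 and 11 with probe sets averaged per gene, an alternative chosen after seeing the data. Without a block the count over all was 13 with quantile normalization, 24 with array medians centred, 5 without the trend and 29 with probe sets averaged per gene, and limma called 0 members in each. Leaving out 1 array gave 0 to 29 over all and 0 members and partners, with 0 over all without TAT-2 replicate 2 or 3 or vector replicate 2 or 3 and 29 without TAT-2 replicate 1. Leaving out a replicate number from both groups gave blocked counts of 656 to 1511 over all (827 without number 1), 2 to 3 members and 6 to 11 partners. The causes were not tested. Of the members called with the block, PSMB9 alone was called without a filter. Probe sets near the filter, such as those of the class II genes, rest on signals close to the arrays' floor.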
